A study of Mus musculus with 57 samples.

Results

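The neurogenic basic helix-loop-helix (bHLH) genes Neurod1, Neurod2, Neurod6, Neurod4, Neurog1, Neurog2, Neurog3, Atoh1 and Bhlhe22 were described at the chromatin of brain cortex and gastrocnemius muscle. These 9 genes were chosen by name as known members of the family, by a rule that uses no measured value, out of 26089 curated RefSeq genes on chromosomes 1 to 19 and X of mm10. Earlier results of these data were known when they were chosen. For each gene the peaks of H3K4me3, H3K27ac and H3K27me3 were taken within 1 kb of the transcription start site (TSS) and from 1 to 20 kb on either side of it.

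All mice were PSAPP, a model of Alzheimer's disease that carries transgenes for mutant human presenilin 1 and a chimeric mouse/human amyloid precursor protein with the Swedish mutations. They were killed at 13 months of age and had been kept alone on a modified AIN-93 diet from 6 months. No mouse without the transgenes was profiled, so the tissues were compared within the model only. Cortex of 9 mice and gastrocnemius of 10 mice gave 57 libraries over the 3 marks, and all 9 mice with cortex libraries also gave muscle. Mice of both sexes were used, but the labels do not give the sex of a library, and it was not used here.

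Proneural bHLH factors bind E-box DNA as dimers with E proteins and push neural progenitors out of the cell cycle and into the neuronal lineage. The determination factors, Neurog1, Neurog2, Neurog3 and Atoh1, act first and are usually transient, whereas the differentiation factors of the Neurod group act later, and Neurod2 and Neurod6 remain expressed in mature excitatory neurons of the forebrain. H3K4me3 marks active and poised promoters, H3K27ac marks active promoters and enhancers, and H3K27me3, laid down by Polycomb complexes, covers silenced developmental genes.

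The deposited value of a peak is the number of reads that the peak caller epic2 counted in it. The reads of a peak were shared evenly over its length and were divided by the reads in all autosomal peaks of the library to give reads per 1000000 (RPM). The TSS window and the flank of 1 wide peak are thus not independent, and a local rise or dip within such a peak cannot be seen. A window without a peak has 0 RPM, which means that no peak was called and not that no read fell there, since the smallest peaks called in the libraries held 15 to 39 reads. Reads in peaks ran from 2.99 M (H3K27me3, gastrocnemius 4) to 27.3 M (H3K27ac, gastrocnemius), and 2 libraries lay apart in depth, H3K27ac of cortex 9 with 3.94 M and H3K27me3 of gastrocnemius 5 with 18.2 M. The deposited names of 2 cortex and 4 gastrocnemius libraries of each mark carry an S number whose meaning is not stated, and values within the libraries with and without it are given where they bear on a result. The labelled tissues were checked with marker genes: summed H3K4me3 of 8 neuron markers ran from 145 to 204 RPM in cortex and from 19.7 to 30.1 RPM in gastrocnemius, where 4 of the 8 had no peak, while that of 9 muscle fibre markers ran from 55.2 to 95.0 RPM in cortex, where 5 had no peak, and from 143 to 192 RPM in gastrocnemius. The satellite cell markers Pax7 and Myf5 had no H3K4me3 peak in cortex and 12.6 to 19.9 RPM in gastrocnemius. In bulk tissue, fewer cells that carry a mark and less of the mark per cell cannot be told apart.

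The promoters of the family differ in their content of CG dinucleotides, as can be read in the 250 bases upstream of the TSS (RefSeq, GRCm38.p6, written 5′ to 3′ along the gene, with CG in capitals). Neurod1 and Neurod6 are shown because H3K4me3 and H3K27ac were called within 1 kb of their TSS in cortex only, Neurod2 and Atoh1 because H3K4me3 was called there in both tissues, and Neurod4 because neither active mark was called there in either.
Neurod1, chr2:79456637-79456886, minus strand: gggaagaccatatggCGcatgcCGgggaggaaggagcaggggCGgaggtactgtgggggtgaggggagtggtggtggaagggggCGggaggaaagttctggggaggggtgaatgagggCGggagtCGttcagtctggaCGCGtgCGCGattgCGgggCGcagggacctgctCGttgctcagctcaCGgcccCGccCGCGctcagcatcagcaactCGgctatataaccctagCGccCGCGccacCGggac
Neurod2, chr11:98329646-98329895, minus strand: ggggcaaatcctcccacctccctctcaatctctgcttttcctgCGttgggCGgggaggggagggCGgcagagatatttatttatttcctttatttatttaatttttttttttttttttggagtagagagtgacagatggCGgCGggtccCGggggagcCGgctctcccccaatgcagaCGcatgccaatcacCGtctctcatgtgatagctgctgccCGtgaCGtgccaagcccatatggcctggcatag
Neurod6, chr6:55681264-55681513, minus strand: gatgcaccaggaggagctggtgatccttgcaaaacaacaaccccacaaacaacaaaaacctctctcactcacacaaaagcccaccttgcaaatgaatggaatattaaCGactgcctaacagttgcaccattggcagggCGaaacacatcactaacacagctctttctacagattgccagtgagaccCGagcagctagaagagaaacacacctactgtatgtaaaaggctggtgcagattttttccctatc
Neurod4, chr10:130280255-130280504, minus strand: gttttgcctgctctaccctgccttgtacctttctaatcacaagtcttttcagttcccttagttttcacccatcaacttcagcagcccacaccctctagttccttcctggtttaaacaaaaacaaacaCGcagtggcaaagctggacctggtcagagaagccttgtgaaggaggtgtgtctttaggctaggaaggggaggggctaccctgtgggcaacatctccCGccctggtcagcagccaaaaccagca
Atoh1, chr6:64728875-64729124, plus strand: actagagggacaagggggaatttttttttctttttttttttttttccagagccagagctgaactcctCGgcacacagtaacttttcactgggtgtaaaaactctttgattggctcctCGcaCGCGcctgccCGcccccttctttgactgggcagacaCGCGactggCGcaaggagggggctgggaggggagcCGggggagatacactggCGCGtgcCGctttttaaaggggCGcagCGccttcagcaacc
Over the 300 bases that also take in the first 50 of the transcript, the ratio of observed to expected CG was 0.837 for Neurod1, 0.891 for Neurog1, 0.840 for Atoh1, 0.697 for Neurod2, 0.570 for Neurog2 and 0.547 for Neurog3, and only 0.192 for Neurod6 and 0.197 for Neurod4, against a median of 0.384 over 32851 RefSeq promoters. Bhlhe22 was not matched. Among all genes with a promoter entry, H3K4me3 was called at the TSS in all 19 libraries of the mark for 89.3% of those with a ratio of at least 0.5 and for 4.59% of those under 0.2. Neurod6 and Neurod4 fall in the second class and Neurod1 and Neurog3 in the first, although neither of the latter had the mark at its TSS in gastrocnemius. The E-box CANNTG, searched as these letters (its reverse complement has the same form), occurred 3 times in the 300 bases of Neurod2, 2 times in Neurod6, once each in Neurod1, Neurog1 and Neurog3, and not in Neurod4, Neurog2 or Atoh1, and 72.3% of all promoters hold at least 1. The variant CAGATG or its reverse complement CATCTG was found in Neurod2 only, and in 17.2% of all promoters.

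Among the peak calls, Neurod1 and Neurod6 stood out as all or none. H3K4me3 and H3K27ac were each called at both genes in 9 of 9 cortex libraries and in 0 of 10 gastrocnemius libraries. With a window of 2.5 kb, which reaches the downstream peak of some muscle libraries, the difference in the share of libraries with H3K4me3 at Neurod1 fell to 0.5 and was not called (adjusted p = 0.294). By Fisher's exact test over all genes, 3 of the 8 tested bHLH genes had H3K4me3 in more cortex libraries, Neurod1 and Neurod6 (adjusted p = 0.00022 for each) and Neurog3 (6 of 9 against 0 of 10, adjusted p = 0.0361, but 0.108 with at least 50% of the window covered and 0.631 without the libraries with an S number), where 5.27% of all tested genes were called in that direction. For H3K27ac the same test called 3 of 6, Neurod1 and Neurod6 (adjusted p = 0.000179 for each) and Bhlhe22 (9 of 9 against 1 of 10, adjusted p = 0.00137), against 9.83% of all genes. Other settings added calls towards cortex, for Neurod2 with at least 50% of the window covered (adjusted p = 0.00996 for H3K4me3 and 0.00144 for H3K27ac) and, for H3K27ac, without the lowest 25% of scores (adjusted p = 0.0231), and for H3K4me3 of Neurog1 with equally many top peaks in every library (adjusted p = 0.00152). No bHLH gene was called towards gastrocnemius, where 3.49% and 4.44% of all genes were. H3K27me3 was far more even: 7 of the 9 genes had a peak at the TSS in every library of both tissues, the exceptions being Neurod6 (4 of 9 and 8 of 10) and Neurod4 (1 of 9 and 0 of 10). H3K4me3 was called in every cortex library at 7 of the 9 (57.4% of all 26089 genes) and in every gastrocnemius library at 4 (55.7%), and H3K27ac at 4 (57.8%) and at none (56.0%). For H3K27me3, 13.2% of all genes had such a peak in every cortex library and 12.4% in every gastrocnemius library. Fisher's test called 0 of 8 for H3K27me3 in either direction, with 15.6% and 17.7% of all genes called towards cortex and gastrocnemius, and 0 of the 8 had an unadjusted p under 0.05.

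**Figure D1:**
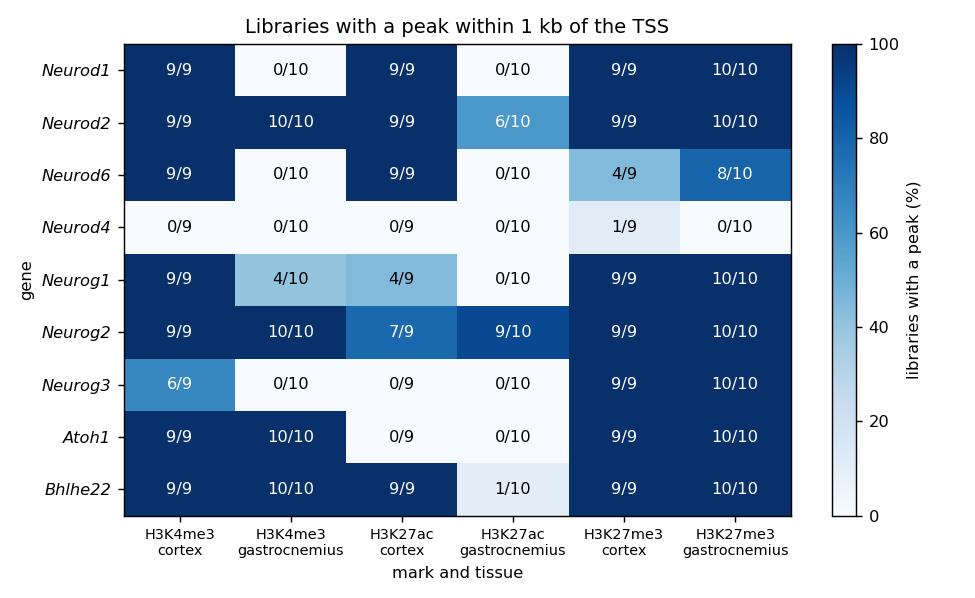
Number of libraries with a peak within 1 kb of the TSS, for each gene (rows) and each mark and tissue (columns), with the colour giving the share in percent. H3K4me3 and H3K27ac of Neurod1 and Neurod6 are in 9 of 9 cortex and 0 of 10 gastrocnemius libraries, while H3K27me3 fills both tissues except at Neurod6 and Neurod4.

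The read counts were compared by edgeR's quasi-likelihood test, fitted for each mark on all genes with a peak in at least 3 libraries of 1 tissue, and called at an adjusted p under 0.1, the threshold of the study's own differential analysis. Neurod1 and Neurod6 (both active marks), Neurog3 (H3K4me3) and Neurog1 (H3K27ac) passed this filter at the TSS through cortex alone. Their muscle zeros are peaks not called, so the size of their p does not measure muscle reads. Within 1 kb of the TSS, H3K4me3 was higher in cortex at 5 of the 8 bHLH genes tested (Neurod1, Neurod2, Neurod6, Neurog3 and Bhlhe22) and higher in gastrocnemius at 1 (Atoh1), against 59.0% and 16.1% of all genes tested. H3K27ac was higher in cortex at 5 of 6 (Neurod1, Neurod2, Neurod6, Neurog1 and Bhlhe22) and higher in gastrocnemius at none, against 49.7% and 12.9%. For H3K27me3, 2 of 8 were higher in cortex (Neurog3 and Atoh1) and none in gastrocnemius, against 19.8% and 23.1%. Read as groups that do not overlap, all cortex libraries lay above all gastrocnemius libraries at 5 of 8 genes for H3K4me3 (17.9% of all genes tested), at 4 of 6 for H3K27ac (14.5%) and at 0 of 8 for H3K27me3 (4.36%), and the reverse held at none (6.58%, 4.43% and 4.50% of all genes). With the main scaling, the edgeR count of H3K4me3 towards cortex thus lies near the share of all genes, while the counts without overlap and by Fisher's test lie above theirs. That share depends on the scaling: 9868 of the 16728 genes tested were called towards cortex in the main fit and 5389 with TMM factors. The same 5 bHLH genes stayed called with TMM factors. The median log2 difference (cortex minus gastrocnemius) of all genes was 0.33 for H3K4me3 and 0.31 for H3K27ac and fell to 0.04 and 0.05 with TMM factors, which lowered the share of calls that were higher in cortex from 78.6% to 54.0% and from 79.4% to 56.2%. For H3K27me3 it was 0.08, and 0.04 with TMM factors.

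**Figure D2:**
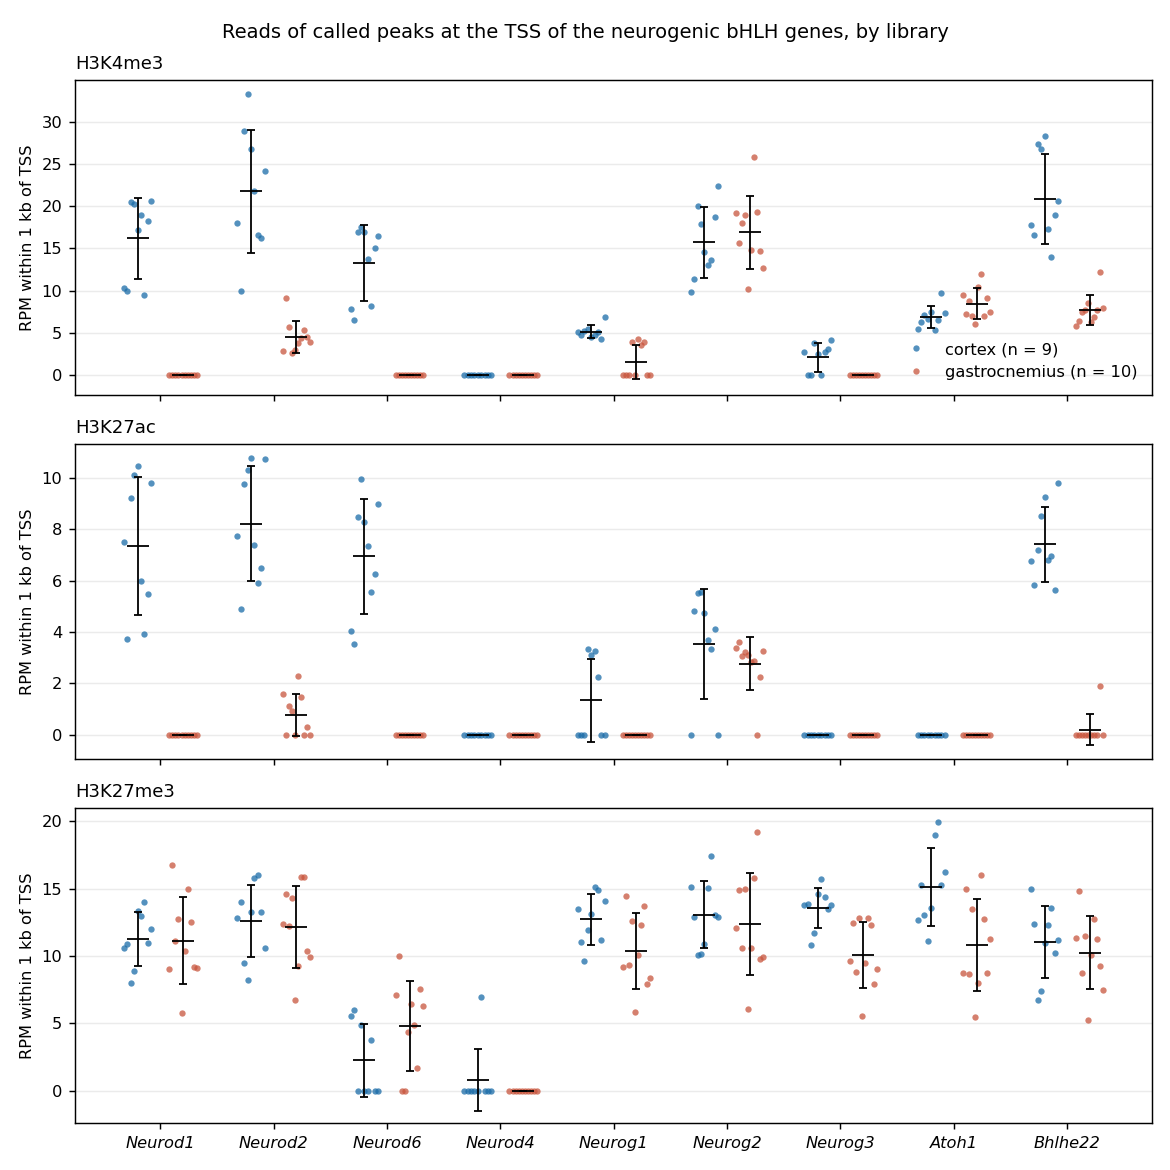
Reads per 1000000 reads in autosomal peaks (RPM) within 1 kb of the TSS, 1 point per library (9 cortex, 10 gastrocnemius), with the mean and SD, for H3K4me3 (top), H3K27ac (middle) and H3K27me3 (bottom). Cortex lies above gastrocnemius without overlap for both active marks at Neurod1, Neurod2, Neurod6 and Bhlhe22, and the tissues overlap for H3K27me3 at all 9 genes.

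Neurod1, a differentiation factor of granule neurons and of pancreatic endocrine cells (gene at chr2:79452637-79456636), had H3K4me3 of 9.47 RPM in the lowest cortex library, 18.3 in the median and 20.6 in the highest, and no peak in gastrocnemius (edgeR adjusted p = 9.93e-11, or 6.87e-05 with the mouse as a block). Its H3K27ac in cortex ran from 3.71 over 7.49 to 10.5 RPM, again with no peak in muscle (adjusted p = 3.37e-09, or 0.00174 with the block). Both active marks therefore separated the tissues completely, as they did within the libraries with and without an S number. H3K27me3 did not over all libraries: it held 7.96, 10.9 and 14.0 RPM (lowest, median, highest) in cortex and 5.77, 10.7 and 16.7 RPM in gastrocnemius, a log2 difference of 0.04 ± 0.17 (SE, adjusted p = 0.861), and the groups overlapped. Among the 6 libraries with an S number, cortex lay above gastrocnemius for H3K27me3 at the TSS of Neurod1, Neurod2, Neurog1, Neurog2, Neurog3, Atoh1 and Bhlhe22, and among the other 13 the groups overlapped at each of them. The cortex peak of H3K4me3 reached from a median of -0.763 to 2.835 kb of the TSS (negative upstream), while H3K27me3 reached from -8.163 kb to the same end in both tissues. A weak H3K4me3 peak was called in 5 of 10 gastrocnemius libraries between 1 and 5 kb downstream, over the gene itself (0, 1.93 and 6.21 RPM, against 11.6, 18.99 and 31.9 RPM in cortex), and over the whole flank the log2 difference was 3.16 ± 0.89 (adjusted p = 0.00356).

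Neurod2, which drives differentiation and synapse maturation of cortical projection neurons (chr11:98325417-98329645), carried H3K4me3 in every library of both tissues. It measured 10.01, 21.8 and 33.3 RPM (lowest, median, highest) in cortex and 2.67, 4.18 and 9.16 RPM in gastrocnemius. All cortex libraries lay above all gastrocnemius libraries, and the ratio of means was 4.78 (log2 difference 2.25 ± 0.23, edgeR adjusted p = 2.9e-08). The difference was 2.13 among the 13 libraries without an S number and 2.39 among the 6 with one. The peaks also differed in place: in cortex they spanned the TSS, from a median of -0.754 to 5.644 kb, whereas the muscle peak began 0.246 kb downstream and ended at 3.044 kb. H3K27ac measured 4.91, 7.74 and 10.8 RPM in cortex and 0, 0.605 and 2.301 RPM in gastrocnemius, where 6 of 10 libraries had a peak (log2 difference 3.40 ± 0.69, adjusted p = 0.000364), again without overlap. H3K27me3 within 1 kb was alike in level, with 8.20, 13.2 and 16.0 RPM in cortex and 6.76, 12.3 and 15.9 RPM in gastrocnemius (log2 difference 0.07 ± 0.16, adjusted p = 0.747). Its peaks over the TSS had a median width of 26.0 kb in cortex and 35.0 kb in gastrocnemius. These levels are thus largely averages over wide domains, in which a local dip at the TSS cannot be seen.

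Around Neurod2 the active marks and H3K27me3 differed in extent. Peaks of H3K27ac covered a median of 87.1% of the 40 kb around the TSS in cortex and 34.6% in gastrocnemius, and H3K27me3 covered 69.4% and 92.7%. From 1 to 20 kb, H3K27ac was 131, 159 and 187 RPM in cortex and 22.9, 32.8 and 45.0 RPM in gastrocnemius (log2 difference 2.26 ± 0.11, adjusted p = 2.67e-13), and H3K4me3 was 106, 149 and 176 RPM against 42.4, 54.8 and 69.8 RPM (1.44 ± 0.11, adjusted p = 1.74e-10). Neither pair of groups overlapped. H3K27me3 of the flank went the other way, with 101.1, 138 and 206 RPM in cortex and 123, 205 and 269 RPM in muscle (log2 difference -0.47 ± 0.14, adjusted p = 0.0117), a call that was lost from 1 to 10 kb (-0.20, adjusted p = 0.318). The gap was widest from 10 to 20 kb upstream, where 5 of 9 cortex libraries had a peak (5.06 ± 5.27 RPM, SD) and all 10 gastrocnemius libraries did (41.4 ± 11.8 RPM). The TSS of Ppp1r1b, which encodes a phosphatase inhibitor of dopamine-responsive neurons, lies 18.8 kb upstream of Neurod2, so these reads cannot be given to 1 gene, and H3K4me3 at the Ppp1r1b TSS itself was 26.97 ± 4.19 RPM in cortex and 9.96 ± 2.19 RPM in gastrocnemius. H3K27me3 there was called in 5 of 9 cortex libraries (3.17 ± 3.11 RPM) and in 10 of 10 of gastrocnemius (11.4 ± 3.12 RPM). Within the libraries without and with an S number the H3K27me3 difference of the flank was -0.60 (adjusted p = 0.00857) and -0.29 (adjusted p = 0.369).

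Neurod6, expressed in postmitotic pyramidal neurons (chr6:55677818-55681263), resembled Neurod1 in the active marks. H3K4me3 measured 6.58, 15.1 and 17.6 RPM (lowest, median, highest) in cortex and H3K27ac 3.55, 7.35 and 9.95 RPM, with no peak of either mark at the TSS in any gastrocnemius library (edgeR adjusted p = 3.89e-10 and 2.11e-09, or 0.000132 and 0.00197 with the mouse as a block). In muscle, a weak H3K4me3 peak in 8 of 10 libraries lay only downstream of the TSS, mostly between 1 and 5 kb (3.17 ± 1.79 RPM, SD, against 25.3 ± 9.51 RPM in cortex), with reads beyond 5 kb in 6 libraries. The whole flank differed by 3.38 ± 0.58 on the log2 scale (adjusted p = 3.07e-05). H3K27me3 was sparse: at the TSS it was 0, 0 and 5.95 RPM in cortex and 0, 5.55 and 9.98 RPM in muscle, with overlapping groups (log2 difference -1.08 ± 1.16, adjusted p = 0.5). Among the libraries with an S number neither of the 2 cortex libraries and all 4 of muscle had it (adjusted p = 0.00411), while the groups overlapped among the others (adjusted p = 0.862). From 1 to 20 kb it was 7.14, 25.2 and 68.7 RPM in cortex and 26.7, 51.9 and 84.7 RPM in gastrocnemius (log2 difference -0.72 ± 0.35, adjusted p = 0.097), a call that was lost with the mouse as a block (-0.88, adjusted p = 0.126), with TMM factors (-0.67, adjusted p = 0.123) and among the libraries without an S number (-0.60, adjusted p = 0.249). The call was also lost with equally many top peaks (-0.59, adjusted p = 0.531) and, with a smaller difference, from 1 to 10 kb (-0.41, adjusted p = 0.334). The predicted gene Gm3279 starts 3.3 kb upstream, within reach of the cortex peaks.

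Neurod4, a factor of retinal and early neural differentiation (chr10:130268152-130280254), was the exception in the Neurod group. Neither H3K4me3 nor H3K27ac was called within 1 kb in any of the libraries. H3K27me3 was called at its TSS in cortex 6 alone (6.96 RPM), and no muscle library had H3K27me3 within 20 kb. In the flank 3 of 9 cortex libraries had H3K27me3 (10.5, 11.1 and 2.14 RPM), and the edgeR call towards cortex (adjusted p = 0.013) was lost with the mouse as a block (adjusted p = 0.151).

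Bhlhe22, a repressor of the Olig-related branch that acts in postmitotic neurons (chr3:18054325-18057514), differed by degree rather than by presence in H3K4me3. It measured 14.0, 18.9 and 28.3 RPM (lowest, median, highest) in cortex and 5.89, 7.61 and 12.2 RPM in gastrocnemius, without overlap. The ratio of means was 2.70 (log2 difference 1.43 ± 0.15, edgeR adjusted p = 3.88e-08), with 1.59 among the libraries without and 1.17 among those with an S number. The cortex peak was also wider, a median of 7.599 kb against 2.999 kb, so the flank differed more than the TSS: 39.2, 58.6 and 80.4 RPM against 3.41, 5.43 and 12.9 RPM (log2 difference 3.17 ± 0.25, adjusted p = 5.34e-10). H3K27ac measured 5.62, 6.98 and 9.79 RPM in cortex and was called in gastrocnemius 9 alone (1.91 RPM). The fitted log2 difference of 5.18 ± 0.99 (adjusted p = 0.000198) rests on that library, without which no muscle library has a peak and no fold can be given (adjusted p = 2.41e-10). H3K27me3 was 6.72, 11.2 and 14.9 RPM in cortex and 5.24, 10.7 and 14.8 RPM in gastrocnemius (log2 difference 0.13 ± 0.18, adjusted p = 0.593).

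Neurog2, a determinant of cortical glutamatergic neurons (chr3:127633136-127635631), measured 9.85, 14.6 and 22.3 RPM in cortex and 10.2, 16.8 and 25.8 RPM in gastrocnemius. The groups overlapped and the log2 difference was -0.10 ± 0.17 (edgeR adjusted p = 0.575), or -0.40 with TMM factors (adjusted p = 0.0555). Its direction was not the same in both sets of libraries, being -0.44 (adjusted p = 0.0243) among those without and 0.64 (adjusted p = 0.0613) among those with an S number. H3K27ac, called in 7 of 9 and 9 of 10 libraries, measured 0, 4.11 and 5.57 RPM against 0, 3.09 and 3.62 RPM (log2 difference 0.37 ± 0.68, adjusted p = 0.656). Apart from Neurog2, only Neurod2 had H3K27ac at its TSS in most libraries of both tissues. What differed was the extent of H3K4me3: from 1 to 20 kb it was 4.92, 9.98 and 16.9 RPM in cortex and 16.0, 24.7 and 30.7 RPM in gastrocnemius (log2 difference -1.24 ± 0.22, adjusted p = 3.46e-05), with a narrow overlap. Between 1 and 5 kb upstream 3 of 9 cortex libraries had reads (1.75 ± 2.77 RPM, SD), as had 9 of 10 gastrocnemius libraries (9.24 ± 4.29 RPM), and between 5 and 10 kb upstream the same numbers had reads. The flank difference was -1.24 and -1.22 among the libraries without and with an S number.

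Neurog1, a determinant of cranial sensory neurons (chr13:56250478-56252180), had H3K4me3 in all 9 cortex libraries (4.30, 5.09 and 6.87 RPM) and in gastrocnemius 4, 6, 7 and 8 only, at 3.59 to 4.28 RPM. All 9 cortex values lay above all muscle values. The log2 difference of 1.71 ± 0.95 was not called (edgeR adjusted p = 0.112), but was with the mouse as a block (3.86, adjusted p = 0.0405). It was also called without any 1 of those 4 gastrocnemius libraries (lowest adjusted p = 0.0779), where leaving out a muscle peak necessarily widens the difference. In 15 of the 19 fits that left out 1 library it was not called (highest adjusted p = 0.148). H3K27ac was called in cortex 4, 5, 6 and 7 (2.24 to 3.35 RPM) and in no muscle library (adjusted p = 0.00461, and 0.109 with the mouse as a block). None of these 4 cortex libraries carries an S number. In cortex 4, 5 and 6 further H3K27ac peaks lay upstream, so that the flank held 7.98, 16.8 and 15.2 RPM there, with 4.63 RPM in cortex 1 and none in the other 5. H3K27me3 formed a domain of at least 16.8 kb in every library, and measured 9.60, 13.1 and 15.1 RPM at the TSS in cortex and 5.81, 9.70 and 14.5 RPM in gastrocnemius (log2 difference 0.32 ± 0.15, adjusted p = 0.118, and 0.28 with adjusted p = 0.00495 with TMM factors).

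Neurog3, required for the endocrine pancreas (chr10:62133090-62134763), showed H3K4me3 at different places in cortex and muscle. At the TSS it was called in 6 of 9 cortex libraries (0, 2.73 and 4.20 RPM for the lowest, median and highest) and in none of gastrocnemius (edgeR adjusted p = 0.000575). In muscle the mark lay upstream instead, between 1 and 10 kb from the TSS, in 9 of 10 libraries and in no cortex library. The flank as a whole measured 0, 0 and 1.11 RPM in cortex and 0, 6.06 and 7.72 RPM in gastrocnemius (log2 difference -4.31 ± 1.00, adjusted p = 0.000713), with -4.42 and -4.06 among the libraries without and with an S number. From 0 to 20 kb, where the TSS is taken in, it was -1.11 (adjusted p = 0.231). H3K27ac was called at the TSS in no library. H3K27me3 at the TSS was 10.8, 13.8 and 15.7 RPM in cortex and 5.51, 9.55 and 12.8 RPM in gastrocnemius, with overlapping groups (log2 difference 0.46 ± 0.14, adjusted p = 0.0145). It was 0.25 (adjusted p = 0.13) among the libraries without and 0.78 (adjusted p = 0.0845) among those with an S number.

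Atoh1, the determinant of cerebellar granule neurons and inner ear hair cells (chr6:64729125-64731245), carried H3K4me3 and H3K27me3 in every library and H3K27ac in none, within the whole 20 kb on either side. H3K4me3 at the TSS was 5.32, 6.71 and 9.72 RPM in cortex and 6.09, 8.13 and 11.99 RPM in gastrocnemius. The groups overlapped, and the call towards muscle (log2 difference -0.30 ± 0.15, edgeR adjusted p = 0.0789) held at -0.60 with TMM factors (adjusted p = 0.0031). The call, but not the size of the difference, was lost with the mouse as a block (-0.34, adjusted p = 0.135), and the call was lost in 10 of the 19 fits that left out 1 library, namely cortex 1, 2, 4, 6 or 7 or gastrocnemius 1, 3, 6, 7 or 9 (log2 difference -0.37 to -0.23 over the 19 fits, highest adjusted p = 0.154). Among the libraries without an S number it was -0.42 (adjusted p = 0.038) and among those with one 0.04 (adjusted p = 0.94). A second H3K4me3 peak lay 5 to 10 kb downstream in 9 of 9 cortex libraries (6.49 ± 1.91 RPM, SD) and in 5 of 10 gastrocnemius libraries (1.57 ± 1.72 RPM), and the flank was higher in cortex (9.68, 11.8 and 13.3 RPM against 2.62, 7.84 and 12.9 RPM, log2 difference 0.70 ± 0.28, adjusted p = 0.0306). Without an S number this was 0.65 (adjusted p = 0.0731) and with one 0.82 (adjusted p = 0.366), and the call was also lost from 0 to 20 kb (adjusted p = 0.147) and without the lowest 25% of scores (adjusted p = 0.388). H3K27me3 at the TSS was the highest of the family in cortex, with 11.1, 15.3 and 19.9 RPM against 5.49, 10.02 and 16.0 RPM in gastrocnemius (log2 difference 0.52 ± 0.18, adjusted p = 0.024), and 0.29 (adjusted p = 0.272) and 0.93 (adjusted p = 0.0786) among the libraries without and with an S number.

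**Figure D3:**
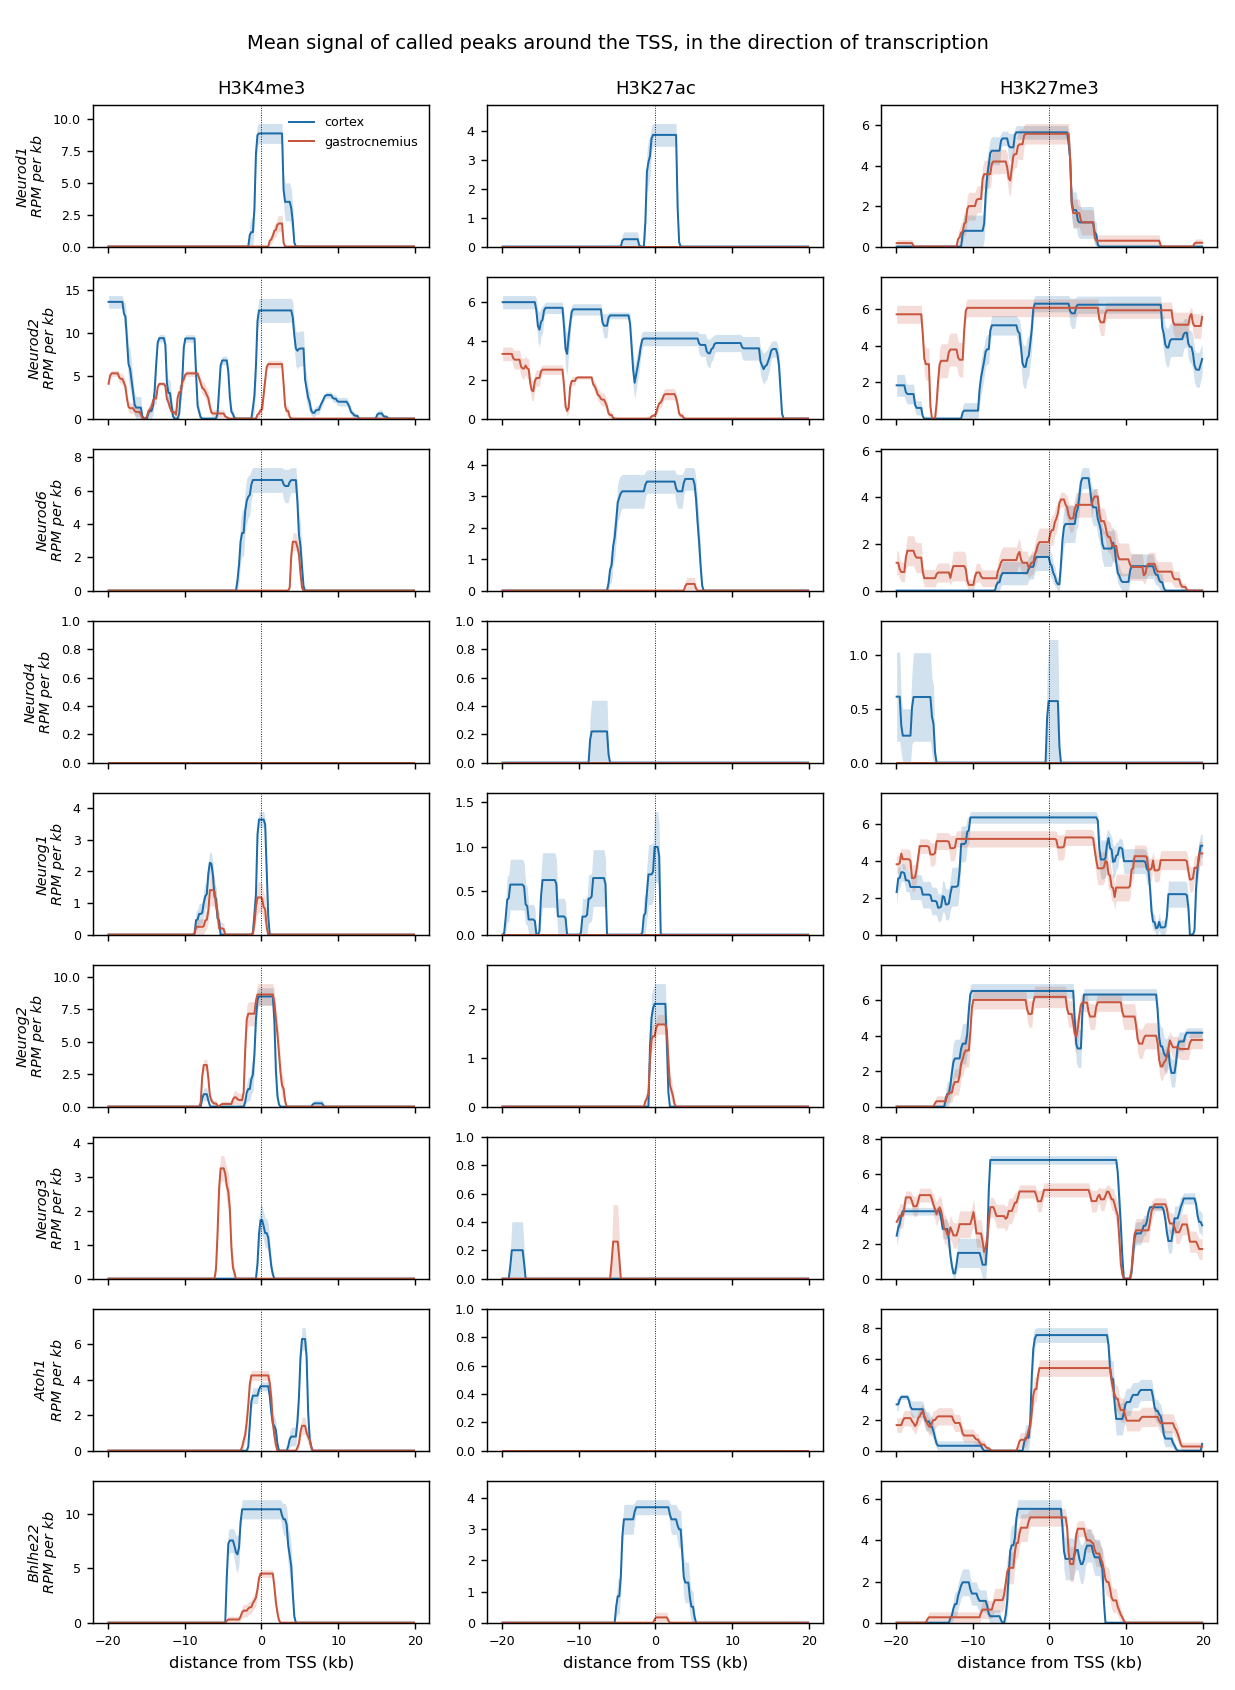
Mean signal of called peaks in RPM per kb against the distance from the TSS in kb, negative upstream in the direction of transcription, for each gene (rows) and mark (columns), with cortex (n = 9) in blue, gastrocnemius (n = 10) in red and the SEM shaded. H3K4me3 of Neurog3 lies at the TSS in cortex and upstream in gastrocnemius, Atoh1 has a second cortex peak downstream, and the active marks of Neurod2 and Bhlhe22 are wider in cortex.

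In the flanks as a whole, H3K4me3 was higher in cortex at 5 of 8 genes tested (Neurod1, Neurod2, Neurod6, Atoh1 and Bhlhe22) and in gastrocnemius at 2 (Neurog2 and Neurog3), against 26.7% and 50.4% of all genes, where the median log2 difference was -0.23 (-0.05 with TMM factors, which moved the share of calls that were higher in cortex from 34.7% to 48.5%). H3K27ac was higher in cortex at 5 of 6 (Neurod1, Neurod2, Neurod6, Neurog1 and Bhlhe22) and in gastrocnemius at none, against 37.7% and 42.2%. H3K27me3 was higher in cortex at 4 of 9 (Neurod4, Neurog2, Neurog3 and Atoh1) and in gastrocnemius at 2 (Neurod2 and Neurod6), against 27.1% and 27.7%. All cortex libraries lay above all gastrocnemius libraries at Neurod1, Neurod2, Neurod6 and Bhlhe22 for H3K4me3 (15.4% of all genes) and H3K27ac (20.5%) and at no gene for H3K27me3 (9.51%), and the reverse held at none of the 9 (21.3%, 23.0% and 9.88%). For H3K27me3, with the mouse as a block 2 calls remained towards cortex and 1 towards gastrocnemius, the calls of Neurod4, Atoh1 (adjusted p = 0.0648, and 0.151 with the block) and Neurod6 being lost. Neurog2 (log2 difference 0.20 ± 0.10, adjusted p = 0.0948) and Neurog3 (0.27 ± 0.09, adjusted p = 0.0244) kept theirs with that block and with TMM factors (0.28 and 0.35). The call of Neurog2 was lost from 1 to 10 kb (0.12, adjusted p = 0.503) and from 0 to 20 kb (adjusted p = 0.123), without the lowest 25% of scores (adjusted p = 0.122), with the block by label number (adjusted p = 0.115), the S number as a covariate (adjusted p = 0.116), without the libraries of unusual depth (adjusted p = 0.128) and scaling to all peaks (adjusted p = 0.365), and that of Neurog3 with scaling to all peaks (adjusted p = 0.121). Within the libraries without and with an S number neither was called, with 0.09 (adjusted p = 0.503) and 0.40 (adjusted p = 0.197) for Neurog2 and 0.19 (adjusted p = 0.164) and 0.38 (adjusted p = 0.201) for Neurog3.

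Across the family, the order of H3K4me3 at the TSS in cortex, by the median over 9 libraries and windows of equal length, was Neurod2, Bhlhe22, Neurod1, Neurod6, Neurog2, Atoh1, Neurog1, Neurog3 and Neurod4. The ranges of the first 5 overlapped their neighbours, a gap without overlap separated Neurog2 (lowest 9.85 RPM) from Atoh1 (highest 9.72 RPM), and the ranges of Atoh1 and Neurog1 overlapped. Neurog1 (lowest 4.30 RPM) lay just above Neurog3 (highest 4.20 RPM). In gastrocnemius the order was Neurog2, Atoh1, Bhlhe22 and Neurod2. Neurog1, called in 4 of 10 libraries, had a median of 0, and the other 4 genes had no peak. The gene with the highest H3K4me3 in muscle was thus a determination factor and the gene with the highest in cortex a differentiation factor. Each gene of the muscle order overlapped its neighbour, Neurog2 (lowest 10.2 RPM) reaching below the highest value of Atoh1 (11.99 RPM).

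H3K4me3 and H3K27me3 were called together at the TSS of most of the family. Both peaks lay within 1 kb in 9 of 9 cortex mice at Neurod1, Neurod2, Neurog1, Neurog2, Atoh1 and Bhlhe22, in 6 at Neurog3, in 4 at Neurod6 and in none at Neurod4. In gastrocnemius both lay there in 10 of 10 mice at Neurod2, Neurog2, Atoh1 and Bhlhe22, in 4 at Neurog1, and in none at Neurod1, Neurod6, Neurog3 and Neurod4. Thus 8 of 9 genes had both marks in at least 3 cortex mice and 5 of 9 in at least 3 gastrocnemius mice, where 14.1% and 15.2% of all 26089 genes did. Bulk tissue cannot show whether both marks lay on 1 chromosome copy or in different cells.

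Among the 9 cortex mice, H3K4me3 of Neurod1 and Neurod6 fell into separate clusters, which are described mouse by mouse with no test. Cortex 1, 2 and 7 had 10.4, 9.92 and 9.47 RPM at Neurod1, and the other 6 mice 17.2 to 20.6 RPM. At Neurod6 the same 3 mice had 7.89, 6.58 and 8.17 RPM, and the other 6 had 13.8 to 17.6 RPM. H3K27me3 from 1 to 20 kb was highest in these mice, with 64.5, 65.0 and 83.9 RPM at Neurod1 (36.6 to 58.2 RPM in the others) and 52.5, 53.0 and 68.7 RPM at Neurod6 (7.14 to 25.3 RPM in the others). H3K27ac did not fall into such clusters: the same mice had 7.49, 3.71 and 3.91 RPM at Neurod1 (5.48 to 10.5 RPM in the others), cortex 1 lying at the median, and 4.04, 3.55 and 5.57 RPM at Neurod6 (6.27 to 9.95 RPM in the others). None of the 3 carries an S number. Because of the clusters, no correlation over all mice was computed for H3K4me3 at these 2 genes.

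At Neurod2 and Bhlhe22 the values did not fall into clusters. Of 28 relations considered, 14 were left out because a value in them fell into clusters. The 14 computed were 12 at these genes between marks or with marker sums and 2 of H3K27ac with H3K27me3 of the flank at Neurod1 and Neurod6, chosen after the values had been seen. The adjustment covers the 14 computed only, so the p-values below are descriptive and are no independent support for a relation. H3K4me3 and H3K27ac at the Neurod2 TSS rose together (Pearson r = 0.894, exact permutation p = 0.00168, adjusted over the 14 relations 0.0235, Spearman rho = 0.833, exact p = 0.00827, adjusted 0.0579). H3K4me3 at the TSS ran against H3K27me3 of the flank at Neurod2 (r = -0.819, exact permutation p = 0.00763, adjusted 0.0356, rho = -0.783, exact p = 0.0172, adjusted 0.0804) and at Bhlhe22 (r = -0.851, exact permutation p = 0.00483, adjusted 0.0338, rho = -0.867, exact p = 0.00451, adjusted 0.0579). Without the 2 mice farthest from the median of H3K4me3, r was 0.871, -0.743 and -0.905, and over the 7 mice without an S number it was 0.930, -0.905 and -0.888, while the 2 mice with one are too few for a value. H3K27ac against H3K27me3 of the flank gave r = -0.689 at Neurod1 (exact permutation p = 0.0385, adjusted 0.0899, rho = -0.633, exact p = 0.0760, adjusted 0.152) and r = -0.778 at Neurod6 (exact permutation p = 0.0161, adjusted 0.0553, rho = -0.75, exact p = 0.0255, adjusted 0.0892), or -0.349 and -0.663 without the 2 farthest mice and -0.841 and -0.776 over the 7 without an S number. No Spearman value was under 0.05 after adjustment, and no Pearson value other than the first 3 was. The summed H3K4me3 of neuron, astrocyte and oligodendrocyte markers, tested at Neurod2 and Bhlhe22, gave adjusted p of at least 0.455 for Pearson's r and at least 0.357 for Spearman's rho. The neuron sum was 169, 180 and 177 RPM in cortex 1, 2 and 7 and 145 to 204 RPM in the other 6. The astrocyte sum was 48.5, 56.4 and 51.7 RPM in the same mice and 51.3 to 69.8 RPM in the others. That of oligodendrocytes was 31.0, 32.6 and 40.9 RPM against 31.7 to 51.9 RPM. That of microglia, for which no relation was computed, was 12.4, 7.84 and 12.7 RPM against 7.99 to 19.9 RPM. Cortex 1 was thus the lowest of all mice for astrocytes and oligodendrocytes and cortex 2 for microglia, and the part of these cell types in the values of Neurod1 and Neurod6 was not tested.

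**Figure D4:**
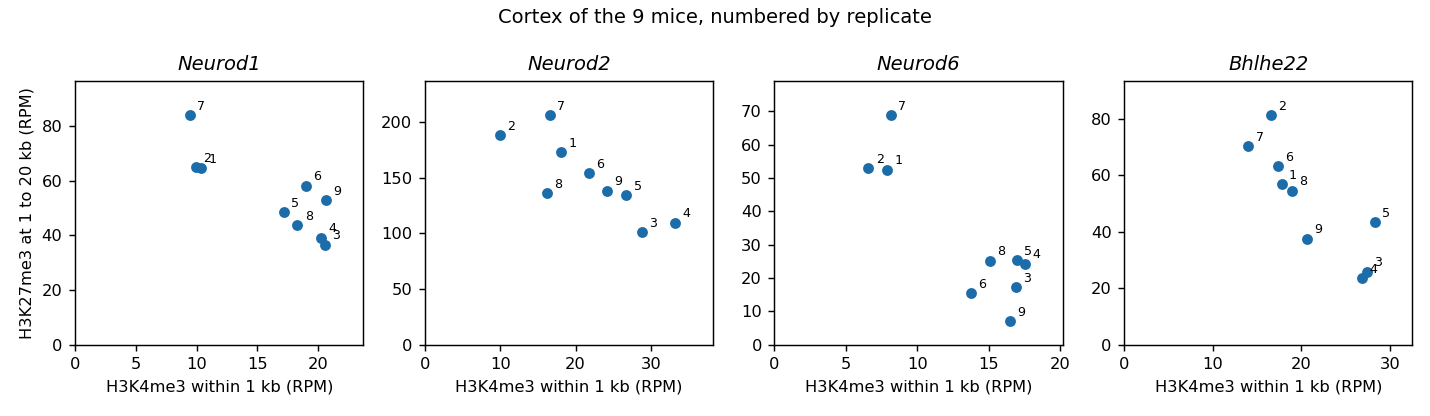
H3K4me3 within 1 kb of the TSS (horizontal, RPM) against H3K27me3 from 1 to 20 kb (vertical, RPM) in the cortex of the 9 mice, 1 point per mouse with its replicate number, for Neurod1, Neurod2, Neurod6 and Bhlhe22. Mice 1, 2 and 7 sit apart at the upper left for Neurod1 and Neurod6.

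The genes most like each member, by the root mean square difference of log2(RPM + 1) at the TSS over all 57 libraries, were found among all genes over 100 kb away from any of the 9. For Neurod2 they were Emx1 (0.43), a homeobox gene of the cortical excitatory lineage, and B830017H08Rik (0.52), and for Neurod6 Dscam (0.69), a neuronal adhesion gene, and Khdrbs2 (0.82). Atoh1 was closest to Foxb2 (0.20) and Nkx6-1 (0.21), Neurog2 to Shisa3 (0.50) and Msx3 (0.50), Neurog3 to Dkk1 (0.30) and Lin28a (0.34), and Bhlhe22 to Npas3 (0.29), a bHLH-PAS factor of neurons, and Cemip (0.34). Those of Neurod1 were Gm16702 (0.32) and Pcca (0.33), and those of Neurog1 Htr5b (0.67) and Slc25a48 (0.67). Neurod4, at 0 in nearly all libraries, was closest to Olfr1496 and Krtap24-1, genes of the same empty kind. Within the family, Neurod2 and Bhlhe22 were the most alike (0.59), and Neurog1 and Neurog3 came next (1.02).

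Other genes of the same circuits were described from fixed lists. The lists' counts are to be set against the shares of all genes called at the TSS given above, 59.0% and 16.1% towards cortex and gastrocnemius for H3K4me3, 49.7% and 12.9% for H3K27ac and 19.8% and 23.1% for H3K27me3. Of 12 other neural bHLH genes, 9 were tested for H3K4me3 at the TSS and 7 were higher in cortex and 1 (Atoh8) in gastrocnemius, with a median log2 difference of 1.89 against 0.33 over all genes. Olig1, of the oligodendrocyte lineage, had 29.0 ± 2.58 RPM of H3K4me3 in cortex and 6.40 ± 2.82 RPM in gastrocnemius (SD, edgeR adjusted p = 3.43e-06). Of 14 genes that act with or below the family in cortical excitatory neurons, 8 were higher in cortex for H3K4me3, near the share of all genes, and 10 for H3K27ac, and 1 (Eomes, of intermediate progenitors) was higher in gastrocnemius for both. H3K4me3 of Tbr1, of early projection neurons, was 22.3 ± 5.89 and 4.86 ± 2.05 RPM (edgeR adjusted p = 8.53e-06). For H3K27me3, 5 of the 12 other neural bHLH genes were higher in cortex and 1 in gastrocnemius, and 0 and 3 of the 13 excitatory neuron genes tested, the latter being Cux2, Elavl4 and Rnd2. The active marks mostly went the other way at the myogenic and mesodermal bHLH genes, of which 5 of 6 tested (Myod1, Myf5, Myf6, Myog and Twist1) were higher in gastrocnemius for H3K4me3 and H3K27ac, with a median log2 difference of -5.11 for H3K4me3, and 1 (Msc, a repressor of myogenesis) was higher in cortex. Of the 5 tested for H3K27me3, Myod1, Myf5, Tcf21 and Twist1 were higher in cortex and Msc was higher in gastrocnemius. H3K27me3 of Myod1, the muscle determination factor, was 11.2 ± 2.18 RPM in cortex and 1.154 ± 2.44 RPM in muscle (adjusted p = 0.0192). Partners and inhibitors of the family went both ways in H3K4me3: of 11 genes, 7 were higher in cortex (the E protein gene Tcf3, Id2, Id4, Hes5, Hes6, Hey1 and Hey2) and 3 in gastrocnemius (Id1, Id3 and Hes1), with a median of 0.33, as over all genes. For H3K27me3, 5 of the 8 tested (Id1, Id2, Id4, Hey1 and Hey2) were higher in gastrocnemius and 1 (Hes1) in cortex. The marker sums of neurons and muscle fibres given above also differ between the tissues, and their part in the differences of these lists was not tested.

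**Figure D5:**
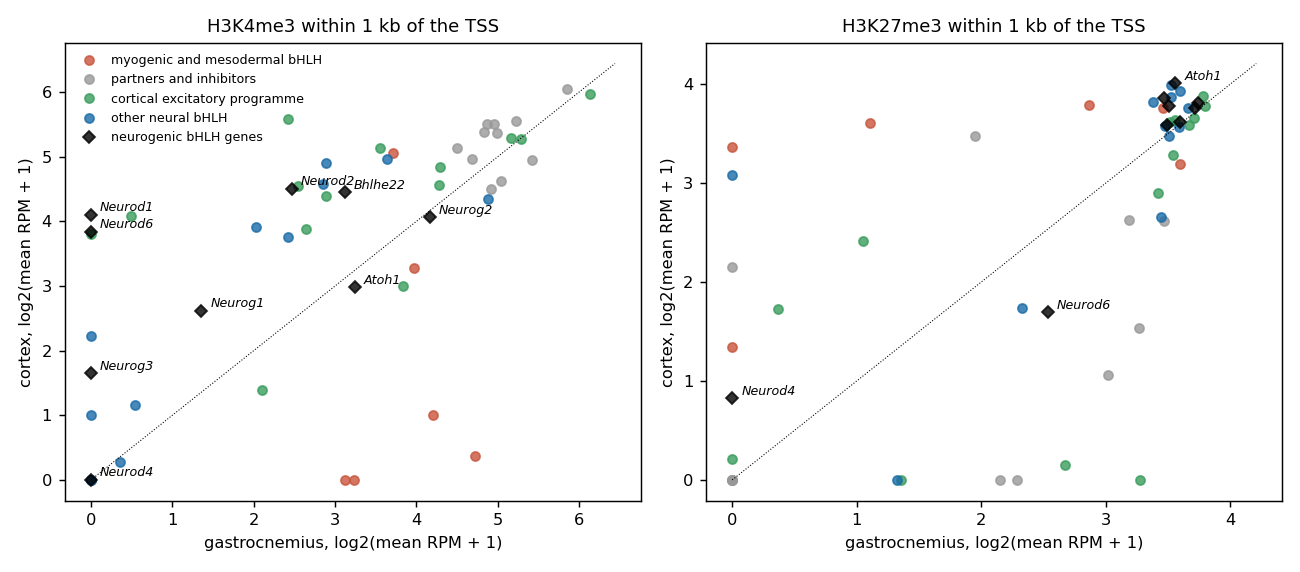
Mean H3K4me3 (left) and H3K27me3 (right) within 1 kb of the TSS in gastrocnemius (horizontal) and cortex (vertical), both as log2(mean RPM + 1), 1 point per gene, for the neurogenic bHLH genes (black diamonds) and 4 lists of related genes. The dotted line marks equal levels; Neurod1 and Neurod6 lie on the left edge for H3K4me3, and most of the family lies near the line for H3K27me3.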

How the data were processed

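H3K4me3, H3K27ac and H3K27me3 ChIP-seq peaks of cortex (9 mice) and gastrocnemius (10 mice) were used. The authors aligned the reads to mm10 with BWA, dropped duplicates, poorly mapped reads and those on other sequences than the autosomes and X, and called peaks per library with epic2 (fragment size 200, window 200, 2 gaps, or 3 for H3K27me3, FDR 0.05, e-value 100). BWA, SAMtools and mm10 also stand in the submitters' processing notes. The version of epic2 was not given in the sources used here. The deposited files give each peak's position, its counts of reads and the score of the caller. No input column was used.

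Counts were assigned to windows around the TSS (RefSeq, GRCm38.p6) in proportion to the overlapped length, rounded, and tested for each mark with edgeR 4.0.16 (quasi-likelihood, R 4.3.3) over all genes with a peak in at least 3 libraries of 1 tissue. The library size was the reads in autosomal peaks, and the Benjamini-Hochberg adjusted p was called under 0.1. Numbers of libraries with a peak were compared by a two-sided Fisher's exact test (SciPy 1.17.1). Scripts used Python 3.11.15, NumPy 2.4.6, pandas 2.3.3 and matplotlib 3.10.9, and were tested on simulated data. Alternatives were DESeq2 1.42.0, limma 3.58.1 on log2(RPM + 1) and log2(RPM + 0.25), TMM factors, other windows, filters, peak thresholds and library sets, and each library left out in turn at the TSS. All 9 genes were named in every comparison, and related genes from the lists described, some of which are not reported here by name. The 2 genes most like each member were taken by the smallest root mean square difference, leaving out genes within 100 kb of a member. The members and lists were chosen with earlier results of these data known. Segments of the flanks and relations between cortex mice were chosen after seeing the data.

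The 9 mice with both tissues were matched by the mouse number in the deposited names, which is the replicate number of the labels in both tissues in 4 of 9 cases. Deviations from the tissue means of the same mouse correlated by -0.0911 to 0.0986 over the 3 marks, with 0 of 9 pairs over 0.1 in each. The fit with the mouse as a block is given where it changes a call. P-values of the main edgeR fit measure the spread between mice within each tissue and take no account of the pairing. Those of Fisher's test compare numbers of libraries and measure no spread. The study compared the sexes, which were not separated here.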

Additional observations from a re-analysis of the deposited data

Results flagged for a closer look

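Of 78 groups of libraries tested for a value far from the others by Dixon's test, 7 had one, and chance gives about 1 in 20. H3K4me3 within 1 kb of the TSS was apart at Neurod2 in gastrocnemius 2 (9.16 RPM, the next 5.68), at Neurog1 in cortex 9 (6.87 RPM, the next 5.49), at Atoh1 in cortex 8 (9.72 RPM, the next 7.498) and at Bhlhe22 in gastrocnemius 9 (12.2 RPM, the next 8.50). The same gastrocnemius 9 mouse was the only muscle library with H3K27ac at Bhlhe22. H3K27ac at Neurog2 was not called in gastrocnemius 8 (0 RPM), where the next lowest library had 2.26 RPM. H3K27me3 from 1 to 20 kb was low at Atoh1 in cortex 3 (63.0 RPM, the next 93.3) and at Bhlhe22 in gastrocnemius 6 (30.2 RPM, the next 46.3).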

How the results depend on the processing

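Across the alternatives, 491 counts stayed within 1.5 times their main value and 53 did not, and of the values of single genes 1172 kept direction and call, 54 lost the call, 28 gained one and 29 reversed. What depth limits is the absence of a peak, since no window without a peak has a known number of reads.

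The 6 libraries per mark with an S number, 2 of cortex, gave fewer calls over all genes: 3550 for H3K4me3, 1646 for H3K27ac and 1308 for H3K27me3 at the TSS, and 8727, 9780 and 3630 in the flank. With 2 cortex libraries, a gene with peaks in cortex only could not pass the filter of 3 libraries and was not tested, so counts towards cortex are limited by the filter. They called 3 neurogenic genes for H3K4me3 at the TSS towards cortex and 0 towards gastrocnemius, 2 towards cortex in the flank, 0 and 1 for H3K27ac at the TSS and in the flank, and for H3K27me3 1 towards gastrocnemius at the TSS and 0 in either direction in the flank. Without these libraries, 2 were called towards gastrocnemius for H3K4me3 at the TSS, 0 towards cortex for H3K27me3 at the TSS or in the flank, and 1 towards gastrocnemius in the flank. Asking for reads in every library, which drops genes with no peak in 1 tissue, left 2 for H3K4me3 at the TSS, 3 towards cortex and 1 towards gastrocnemius in the flank, 0 and 1 for H3K27ac, and 431 and 3576 of all genes for H3K27me3.

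For H3K4me3 at the TSS, calls towards gastrocnemius rose from 1 to 2 with DESeq2, TMM factors or the 2.5 kb window, fell to 0 with the S number as a covariate or without the lowest 25% of scores, and ran from 0 to 1 when 1 library was left out. In the flank they fell from 2 to 1 with the window from 0 to 20 kb. For H3K27me3 of the flank, calls towards cortex fell from 4 to 1 with scaling to all peaks and 2 without the lowest 25% of scores, and those towards gastrocnemius from 2 to 1 with TMM factors, equally many peaks, without the libraries of unusual depth or without the lowest 25% of scores, and to 0 with the flank of 1 to 10 kb. The cause was not tested.

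With the replicate block by mouse, H3K4me3 calls towards gastrocnemius at the TSS fell to 0, and H3K27me3 flank calls to 2 towards cortex and 1 towards gastrocnemius. With the block by label number they were 0 and, towards cortex, 1. The block changed no other count of neurogenic genes by over 1.5 times.

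Reversed values (log2) were small in most cases. With an S number they were 0.64 for Neurog2 and 0.0425 for Atoh1 (H3K4me3, TSS), -0.36 for Neurog2 (H3K27ac, TSS) and 0.14 for Neurog1 (H3K27me3, flank). Without one, H3K27me3 at the TSS was -0.19 for Neurod1, -0.15 for Neurod2, -0.15 for Neurog2 and -0.0704 for Bhlhe22, and 0.0143 for Neurod1 in the flank. For H3K27me3 at the TSS, Neurod1 was -0.0494 with DESeq2, -0.0367 with the mouse block, -0.0542 scaled to all peaks and -0.0380 without libraries of unusual depth, with -0.0380 to 0.13 when 1 library was left out, and Neurod2 was -0.0272, -0.00942 and -0.0201 in the first 3. In the flank, Bhlhe22 was 0.0430 with DESeq2 and 0.0281 with TMM factors, Neurog1 0.0226 with DESeq2, 0.00619 with equally many peaks and 0.34 within 10 kb, where it was called towards cortex (edgeR adjusted p = 0.0403), and Neurod1 0.0224 and 0.00489 in the last 2. H3K27ac of Neurog2 was -0.0510 with limma and a pseudocount of 0.25 and 0.16 from 0 to 20 kb, and its difference in the share of libraries with a peak was 0.0778 without the lowest 25% of scores and 0.0238 without an S number.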

Other observations

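H3K4me3 and H3K27me3 lay together at the TSS in at least 3 cortex mice at 8 of the 12 other neural bHLH genes, 10 of the 14 excitatory neuron genes, 5 of the 11 partners and inhibitors and 3 of the 7 myogenic and mesodermal bHLH genes, and in at least 3 gastrocnemius mice at 6, 10, 7 and 2. Over all genes the share was 14.1% in cortex and 15.2% in gastrocnemius. Atoh8, the neural bHLH gene with more H3K4me3 in muscle, had H3K27me3 in 9 of 9 cortex libraries (7.48 ± 1.73 RPM, SD) and in no gastrocnemius library.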
